A study of Hyphopichia burtonii and Hyphopichia pseudoburtonii with 16 samples.

Results

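Hyphopichia burtonii and Hyphopichia pseudoburtonii, a pair of closely related yeasts, were compared in the change of each shared gene's RNA level over the first 5 min after salt was added. Genes were paired where the Swiss-Prot accession in the deposited description, or otherwise the gene name, occurred once in each species' table. This gave 3415 pairs out of 6115 listed genes of H. burtonii and 5900 of H. pseudoburtonii, of which 3235 were joined by accession and 180 by name. For each pair, the H. burtonii change from 0 to 5 min was subtracted from the H. pseudoburtonii change on a log2(FPKM + 1) scale, where FPKM is a fragment count scaled to transcript length and to the mapped total of the library. A negative difference means a change lower in H. pseudoburtonii. A difference of 1 means that the change was larger by 1 doubling for genes well above 1 FPKM. Near or below 1 FPKM the added 1 shrinks changes, so a difference of 1 stands for more than 1 doubling. The 16 libraries of the series came from wild-type strains isolated from Nuruk, a Korean fermentation starter, H. burtonii KJJ43 and H. pseudoburtonii KJS14, with 2 libraries for each species and time. Cultures in YPD, a rich glucose medium, were grown from an OD600 of 0.6 to 2. The 0 min cells were then harvested, YPD holding 2 M NaCl was added at a volume ratio of 1 to bring NaCl to 1 M, and further cells were taken at 5, 15 and 30 min. The comparison of the first change rests on the 8 libraries at 0 and 5 min, and no course without salt was analysed here, so the effect of the salt and of the fresh medium that came with it cannot be told apart.

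When salt is added, yeast cells lose water within moments and must rebuild turgor while keeping sodium out. In Saccharomyces cerevisiae the Hog1 kinase pathway senses the loss, and cells then make and hold glycerol as a compatible solute, pump sodium out, and use calcium and calcineurin signalling for longer adjustment. Growth genes, above all those for ribosomes, and stress genes such as those for trehalose and chaperones are known to change quickly and together in that yeast.

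The early changes of the species were nearly uncorrelated. Of the 3399 pairs above the filter on low values, 528 (15.5%) differed between the species in their 5 min change (limma, Benjamini-Hochberg adjusted p under 0.05, referred to as called), and 1103 had an unadjusted p under 0.05. It is not stated whether the 2 libraries of a group came from separate cultures, so p-values measure only the spread between these libraries, which may be technical. Values after ± are standard errors from limma. The change was higher in H. pseudoburtonii for 267 pairs (7.86%) and lower for 261 (7.68%), and the median difference over all tested pairs was 0.05. The extremes were unequal: of 155 called pairs with a difference of at least 2, 115 were lower and 40 were higher in H. pseudoburtonii. Among the 20 with a difference of at least 4, 18 were lower and 2 were higher. The 4 possible changes of each species (each 5 min library against each 0 min library) did not overlap in any of the 528 called pairs, against 1752 of all tested pairs (51.5%), of which 931 were higher (27.4%) and 821 lower (24.2%).

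Each species was then fitted alone to sort the called pairs. At 5 min, 1348 of 6047 tested genes (22.3%) changed in H. burtonii, 675 up (11.2%) and 673 down (11.1%), and 506 of 5798 (8.73%) in H. pseudoburtonii, 242 up (4.17%) and 264 down (4.55%). Over the tested pairs alone, 363 rose (10.7%) and 372 fell (10.9%) in H. burtonii, and 147 rose (4.32%) and 142 fell (4.18%) in H. pseudoburtonii. Of the 528 called pairs, 256 changed in H. burtonii alone by these fits, 117 in H. pseudoburtonii alone, 45 in both in opposite directions, 4 in both in the same direction, and 106 in neither. Over all tested pairs, 74 changed in both species, 29 of them in the same direction (18 higher and 11 lower in both) and 45 in opposite directions. Across the 3399 pairs the correlation between the species' 5 min changes was 0.021 (Pearson) and 0.042 (Spearman), and the sign was shared by 52.9% of pairs. The correlation between a species' own changes, from replicate 1 libraries and from replicate 2 libraries, was 0.718 in H. burtonii and 0.585 in H. pseudoburtonii. These correlations run across genes of the same libraries and are descriptions.

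**Figure D1:**
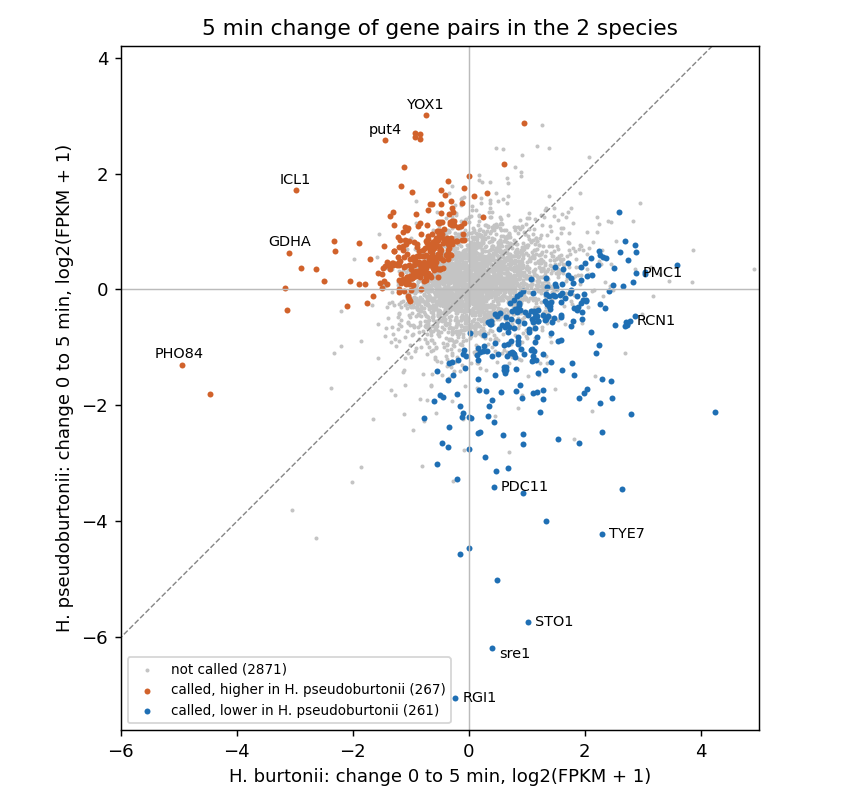
Change in log2(FPKM + 1) from 0 to 5 min in H. burtonii (horizontal) and H. pseudoburtonii (vertical) for 3399 gene pairs, each point a pair; the dashed line marks equal change. The 267 pairs called higher in H. pseudoburtonii lie above the line and the 261 called lower lie below it, with the longest distances below, at RGI1, sre1, STO1 and TYE7.

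The number of calls depended on single libraries. Without replicate 1 or 2 at 5 min of H. burtonii, 281 and 247 pairs were called, and without replicate 1 or 2 at 0 min of H. pseudoburtonii, 276 and 298. By the fits of each species, the changed genes numbered 202 and 178 in H. burtonii without replicate 1 or 2 at 5 min, and 96 and 94 in H. pseudoburtonii without replicate 1 or 2 at 0 min. Scaling libraries by their median ratio within each species gave 538 calls, split into 211 higher and 327 lower. Replicate libraries were less alike at 0 min of H. burtonii (correlation of log2 levels 0.953) and at 5 min of H. pseudoburtonii (0.948) than at 5 min of H. burtonii (0.992) and 0 min of H. pseudoburtonii (0.985). Depth relative to the deepest library of a species, estimated from the lowest nonzero FPKM values, was 0.541 and 0.464 at 0 min and 1 and 0.86 at 5 min in H. burtonii. In H. pseudoburtonii it was 0.974 and 1 at 0 min and 0.48 and 0.385 at 5 min, so depth moved in opposite directions in the species; its part in the differences was not tested. Among pairs at 10 FPKM or more in at least 2 libraries of each species, a smaller set than the pairs of the main fit, 531 were called. Of 9 housekeeping pairs tested, limma called none and 0 had an unadjusted p under 0.05. Their median difference was -0.28, with 7 of the 9 below 0. The median change was 0.43 in H. burtonii and -0.01 in H. pseudoburtonii. ACT1 (actin) differed by 0.28 ± 0.20 (adjusted p = 0.34) with 2056 and 1917 FPKM at 0 min and 1614 and 1595 FPKM at 5 min in H. burtonii and 1873 and 2048 FPKM at 0 min and 1950.5 and 1895 FPKM at 5 min in H. pseudoburtonii. With quantile scaling the ACT1 difference was 0.80 and was called.

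Regulators were among the lowest differences. The pair sre1 encodes a sterol regulatory element-binding protein, a transcription factor that in Schizosaccharomyces pombe is activated when sterols and oxygen are low. It was listed on chromosome 7, positions 834038 to 834883, in H. burtonii and on chromosome 2, positions 1463523 to 1464758, in H. pseudoburtonii (genome build not given in the sources used here). The gene spans differ in length. In H. burtonii sre1 stood at 408 and 397 FPKM at 0 min and 545 and 524 FPKM at 5 min. The H. pseudoburtonii libraries held 388 and 407 FPKM at 0 min and 4.43 and 4.52 FPKM at 5 min. The starting levels were alike, and after 5 min the H. pseudoburtonii libraries were far below all others, with a difference of -6.59 ± 0.30 (adjusted p = 1.0e-07).

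TYE7, a regulator that activates glycolytic genes in Candida albicans, moved in opposite directions. In H. burtonii it rose from 289 and 819.6 FPKM to 2223 and 2571 FPKM (change 2.29 ± 0.54, adjusted p = 0.024). In H. pseudoburtonii it fell from 2253 and 2309.9 FPKM to 112 and 134 FPKM (change -4.21 ± 0.31, adjusted p = 3.6e-04). The levels of the species thus crossed, and the 0 min libraries of H. burtonii differed from each other more than the other pairs of libraries, with a difference between species of -6.50 ± 0.69 (adjusted p = 1.1e-04). FCR1, a zinc-cluster factor named for fluconazole resistance in C. albicans, crossed in the same way. It stood at 6.07 and 13.03 FPKM at 0 min and 61.8 and 60.7 FPKM at 5 min in H. burtonii and at 239 and 262 FPKM at 0 min and 27.5 and 17.7 FPKM at 5 min in H. pseudoburtonii, a difference of -6.09 ± 0.53 (adjusted p = 1.9e-05). RIM101, the factor that responds to alkaline pH, rose in H. burtonii from 77.3 and 142 to 269 and 293 FPKM and stood at 67.8 and 63.4 FPKM at 0 min and 48.5 and 31.0 FPKM at 5 min in H. pseudoburtonii, a difference of -2.16. Of 31 tested pairs listed as DNA-binding regulators, 6 were called lower and 2 higher in H. pseudoburtonii, against 7.68% and 7.86% of all tested pairs, with a median difference of -0.09.

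4 other genes with low differences, STO1, YHB1, BDH1 and RGI1, lie outside the listed complexes of respiration. Of 52 tested pairs of the respiratory chain and ATP synthase, 3 were called higher and none lower, against 7.86% and 7.68% of all tested pairs, with a median difference of -0.13. STO1, the alternative oxidase that passes electrons from ubiquinol to oxygen outside the cytochrome chain, had 2020.4 and 2077 FPKM at 0 min and 4163 and 4202 FPKM at 5 min in H. burtonii. Levels in H. pseudoburtonii were 1575 and 1643 FPKM at 0 min and 22.4 and 37.8 FPKM at 5 min. It rose in the former and fell in the latter, by 1.03 ± 0.20 and -5.74 ± 0.44, and the difference was -6.77 ± 0.53 (adjusted p = 9.2e-06). YHB1, a flavohemoprotein that detoxifies nitric oxide, stayed between 1621 and 2051 FPKM in the 4 libraries of H. burtonii and went from 489 and 538 to 16.2 and 26.2 FPKM in H. pseudoburtonii, a difference of -4.42 ± 0.30 (adjusted p = 3.4e-06). BDH1, a butanediol dehydrogenase, stood between 152 and 183 FPKM in H. burtonii and went from 247 and 269 to 20.3 and 5.45 FPKM in H. pseudoburtonii, a difference of -4.47. RGI1, a protein of respiratory growth, had the lowest difference, -6.81 ± 1.42 (adjusted p = 0.0078). Its H. burtonii libraries held 3571 and 3232 FPKM at 0 min and 2971 and 2811 FPKM at 5 min, and its H. pseudoburtonii libraries 293 and 313 FPKM at 0 min and 4.3 and 0 FPKM at 5 min, of which the last is listed at 0. With a pseudocount of 0.1 the RGI1 call was lost (adjusted p = 0.053).

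Genes of signalling and transport were also among the 15 lowest differences named by rule. PDE2, a phosphodiesterase that breaks down cyclic AMP, went from 1.76 and 6.93 to 24.0 and 26.1 FPKM in H. burtonii and from 26.3 and 28.5 to 10.1 and 4.39 FPKM in H. pseudoburtonii. SLY41, described as a transporter, went from 10.7 and 6.11 to 35.8 and 30.4 FPKM and from 179.9 and 147 to 15.2 and 41.4 FPKM. Both rose in H. burtonii and fell in H. pseudoburtonii, with differences of -4.35 and -4.54.

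**Figure D2:**
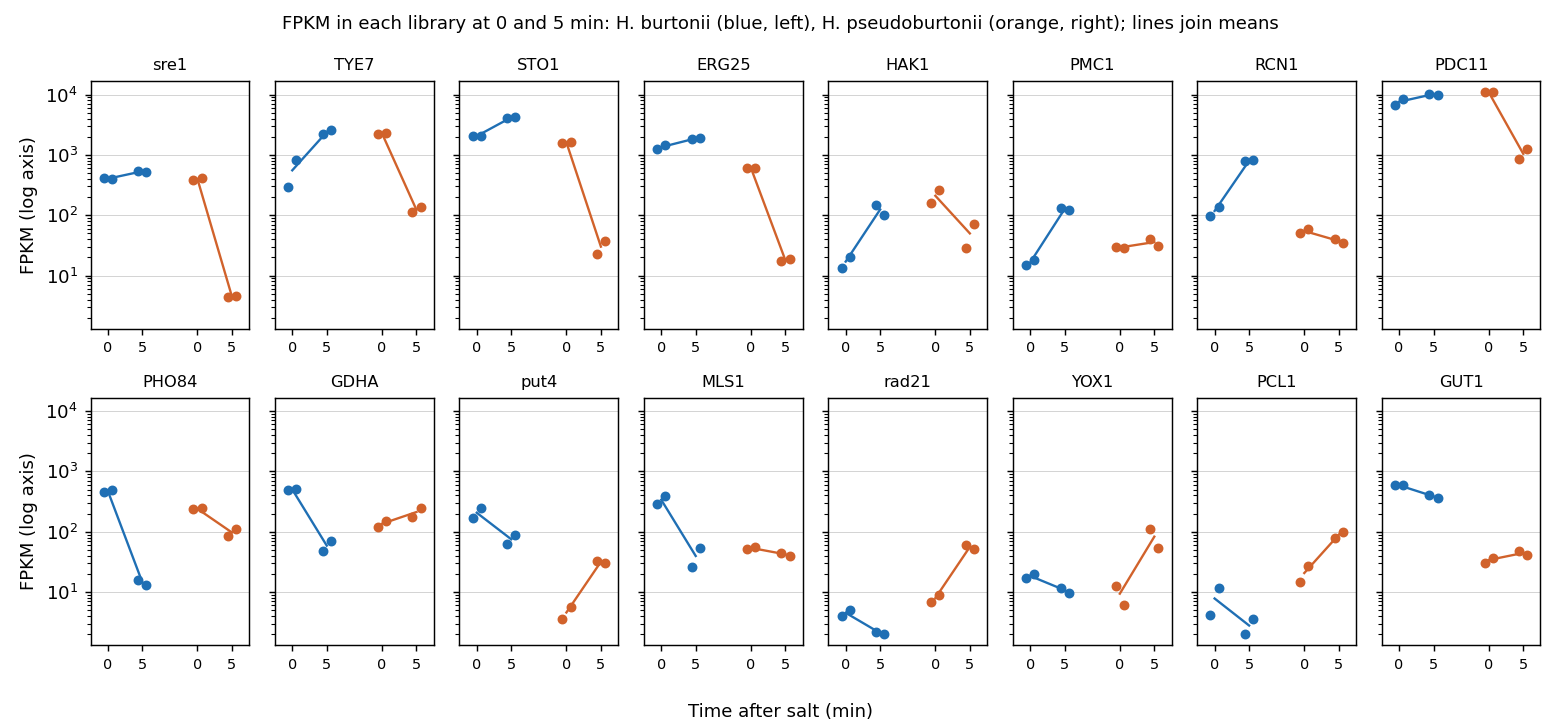
FPKM (log axis) in each library at 0 and 5 min for 16 gene pairs, H. burtonii in blue on the left and H. pseudoburtonii in orange on the right of each panel, with lines joining the means of 2 libraries. By the tests of each species alone, in the upper row H. burtonii falls in none of the 8 panels and H. pseudoburtonii rises in none, and in the lower row H. burtonii falls in 5 of 8 and H. pseudoburtonii in none.

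Glycolysis was the pathway with the lowest median differences. All 5 tested pairs of upper glycolysis were called lower in H. pseudoburtonii, as were 7.68% of all tested pairs, with a median difference of -1.31, a median change of 0.25 in H. burtonii and of -1.11 in H. pseudoburtonii. Each of the 5 fell in H. pseudoburtonii, and none changed in H. burtonii by its own fit. Phosphofructokinase subunit PFK1, which catalyses the committed step, had 1391 and 1713 FPKM at 0 min and 2163 and 1738 FPKM at 5 min in H. burtonii. In H. pseudoburtonii it had 869 and 886 FPKM at 0 min and 221.9 and 167 FPKM at 5 min, and the difference was -2.51 ± 0.26 (adjusted p = 1.1e-04). The others were the isomerase PGI1 (-1.37), the glucokinase GLK1 (-1.31), the aldolase FBA1 (-1.01) and the triosephosphate isomerase TPI1 (-0.85). PFK27, an enzyme that makes fructose 2,6-bisphosphate, the activator of phosphofructokinase, went from 172 and 163 to 12.8 and 14.8 FPKM in H. pseudoburtonii. In H. burtonii its levels were 58.3 and 137 FPKM at 0 min and 161 and 185 FPKM at 5 min, and the difference was -4.46 ± 0.65 (adjusted p = 8.9e-04).

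Of 10 tested pairs of lower glycolysis and fermentation, 6 were called lower and none higher, against 7.68% and 7.86% of all tested pairs, with a median difference of -1.01. The 4 not called were PDC1 (1.26), ADH3 (0.13), ADH2 (-0.59) and ADH6 (-0.39). PDC11, a pyruvate decarboxylase that opens the route from pyruvate to ethanol, had 6640.0 and 8558 FPKM at 0 min and 10377 and 9981 FPKM at 5 min in H. burtonii. The H. pseudoburtonii libraries held 10909.6 and 10905 FPKM at 0 min and 843 and 1239 FPKM at 5 min. The 5 min libraries of H. pseudoburtonii were below all 6 others, and the difference was -3.85 ± 0.33 (adjusted p = 1.8e-05). Pyruvate kinase PYK1 rose in H. burtonii (0.82 ± 0.22, adjusted p = 0.034) and fell in H. pseudoburtonii (-1.38 ± 0.16, adjusted p = 0.0025). The mutase GPM1 (-2.38), the enolase ENO2 (-1.10), the kinase PGK1 (-0.92) and PDC2 (-2.80), in S. cerevisiae a regulator of pyruvate decarboxylase genes, were the other called members. KHT2, a hexose transporter, was the only call among 3 tested sugar transporters, and 7.68% of all tested pairs were called lower. The other 2 were not called and had differences above 0, and the median difference of the 3 was 0.79. KHT2 went from 419 and 389.7 to 1600.0 and 1436 FPKM in H. burtonii and from 1048 and 1049 to 311 and 264 FPKM in H. pseudoburtonii, opposite changes with a difference of -3.77 ± 0.28 (adjusted p = 5.8e-06). The calls of GLK1, TPI1, ENO2 and PGK1 were lost without either 5 min library of H. burtonii or without replicate 2 at 0 min of H. pseudoburtonii, and in part without other libraries (adjusted p 0.050 to 0.12). Quantile scaling also ended the calls of GPM1 (adjusted p = 0.058), TPI1 (adjusted p = 0.21) and PGK1 (adjusted p = 0.28).

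Of 9 tested pairs of trehalose and glycogen, 3 were called lower, 1 higher and 5 in neither direction, against 7.68% lower and 7.86% higher of all tested pairs. The 3 lower calls were TPS1, TPS2 and TPS3, of trehalose synthesis. TPS1, the synthase, went from 377 and 329 to 129.7 and 176 FPKM in H. pseudoburtonii. In H. burtonii TPS1 had 258 and 455 FPKM at 0 min and 699 and 777 FPKM at 5 min, and the difference was -2.32 ± 0.42 (adjusted p = 0.004). The phosphatase TPS2 differed by -1.93 and the regulatory subunit TPS3 by -2.07, and all 3 fell in H. pseudoburtonii by its own fit. GPH1, glycogen phosphorylase, fell in H. burtonii from 199 and 317 to 47.0 and 52.3 FPKM and stood at 19.5 and 15.5 FPKM at 0 min and 11.2 and 5.03 FPKM at 5 min in H. pseudoburtonii, with a difference of 1.22 ± 0.45 (adjusted p = 0.086) that was not called. GLC3, the glycogen branching enzyme, fell in H. burtonii and was called higher in H. pseudoburtonii (1.24), a call lost on leaving out any 1 of 13 libraries (adjusted p 0.050 to 0.12).

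Among 32 tested chaperones and heat-shock genes, 5 were called lower and 1 higher, against 7.68% and 7.86% of all tested pairs, with a median change of 0.55 in H. burtonii and 0.17 in H. pseudoburtonii. By the fits of each species, 9 rose and none fell in H. burtonii, and 1 rose and 3 fell in H. pseudoburtonii. Over all tested pairs, 10.7% rose in H. burtonii, and 4.32% rose and 4.18% fell in H. pseudoburtonii. HSP104, which pulls proteins out of aggregates, had 417 and 873 FPKM at 0 min and 1371 and 1464 FPKM at 5 min in H. burtonii. It fell in H. pseudoburtonii from 1068 and 918 to 219 and 240.3 FPKM, with a difference of -3.34 ± 0.55 (adjusted p = 0.0019). HSP10, the co-chaperonin of mitochondria, differed by -1.84, TMA10 by -2.19, the Hsp70 SSA1 by -1.26 and the Hsp90 co-chaperone AHA1 by -0.95. CCT3, a subunit of the cytosolic chaperonin, differed by 0.99. HSP12, a small stress protein of membranes, rose in H. burtonii from 2212 and 2237 to 4754 and 4789 FPKM and had 2248 and 2425 FPKM at 0 min and 1949 and 3495 FPKM at 5 min in H. pseudoburtonii, and the difference of -0.94 ± 0.37 (adjusted p = 0.11) was not called. The calls of TMA10, SSA1, AHA1 and CCT3 were lost without replicate 2 at 5 min of H. burtonii or replicate 1 at 0 min of H. pseudoburtonii (adjusted p 0.050 to 0.11 over the libraries that ended them).

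Of 6 tested pairs of glycerol synthesis and use, 3 were called lower and 1 higher, against 7.68% and 7.86% of all tested pairs, and all 6 had an unadjusted p under 0.05. The calls were 2 pairs of glycerol-3-phosphate dehydrogenase, TPI1 and GUT1. Glycerol-3-phosphate dehydrogenase, which makes the precursor of glycerol, formed 2 pairs named GPD, and both were called lower in H. pseudoburtonii. The pair led by TBIG000228 in H. burtonii had 1769 and 1906 FPKM at 0 min and 3979 and 4016 FPKM at 5 min there. Levels in H. pseudoburtonii were 470.1 and 329.8 FPKM at 0 min and 279.9 and 328 FPKM at 5 min. It rose in H. burtonii, and in H. pseudoburtonii the higher 5 min library lay just below the lower 0 min library, with a difference of -1.50 ± 0.30 (adjusted p = 0.0063). The other pair (TBIG005904 in H. burtonii) had 892 and 637 FPKM at 0 min and 964 and 1004 FPKM at 5 min in H. burtonii and 221 and 236.2 FPKM at 0 min and 177 and 139 FPKM at 5 min in H. pseudoburtonii. Its difference was -0.93 ± 0.27 (adjusted p = 0.037), and it was lost on leaving out any 1 of 10 libraries (adjusted p 0.051 to 0.12). GUT1, the glycerol kinase that starts glycerol use, fell in H. burtonii from 587 and 590.0 to 405 and 367 FPKM and had 30.9 and 37.2 FPKM at 0 min and 47.8 and 41.2 FPKM at 5 min in H. pseudoburtonii. Its difference was 0.99 ± 0.24 (adjusted p = 0.017), and the call was lost without replicate 2 at 5 min of H. burtonii or replicate 1 at 0 min of H. pseudoburtonii (adjusted p 0.082 to 0.084).

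Of 16 tested pairs of the Hog1 pathway, 2 were called lower and none higher, against 7.68% and 7.86% of all tested pairs, and the median change was 0.42 in H. burtonii and 0.34 in H. pseudoburtonii. HOG1, the kinase itself, had 163 and 193 FPKM at 0 min and 163 and 169.9 FPKM at 5 min in H. burtonii and 67.1 and 69.9 FPKM at 0 min and 60.2 and 40.1 FPKM at 5 min in H. pseudoburtonii, and its difference of -0.38 ± 0.36 (adjusted p = 0.48) was not called. PBS2, the kinase that activates Hog1, rose in H. burtonii from 2.78 and 2.61 to 8.65 and 7.44 FPKM. In H. pseudoburtonii PBS2 had 83.0 and 71.2 FPKM at 0 min and 47.7 and 25.9 FPKM at 5 min, higher in all 4 libraries than in any of H. burtonii, and the difference was -2.39 ± 0.50 (adjusted p = 0.0078). PTP3, in S. cerevisiae a phosphatase that turns Hog1 off, differed by -1.74 ± 0.54 (adjusted p = 0.047), lost on leaving out any 1 of 12 libraries (adjusted p 0.053 to 0.14). Among sugar alcohol and pentose reductases, SOU2, a sorbose reductase homolog, rose in H. burtonii from 21.9 and 34.8 to 228 and 189.8 FPKM. In H. pseudoburtonii SOU2 had 25.9 and 34.1 FPKM at 0 min and 27.4 and 16.5 FPKM at 5 min, levels that overlapped between times, and the difference was -3.33 ± 0.44 (adjusted p = 5.3e-04). Xylose reductase XYL1 fell in H. burtonii and was called higher (1.35), a call lost without replicate 1 at 5 min of H. burtonii or replicate 1 at 0 min of H. pseudoburtonii (adjusted p 0.058 to 0.070).

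Several ion and calcium genes rose in H. burtonii and did not rise in H. pseudoburtonii by its own fit. HAK1, a high-affinity potassium transporter, rose in H. burtonii from 13.6 and 20.5 to 149 and 100.1 FPKM. In H. pseudoburtonii it had 159.5 and 261 FPKM at 0 min and 28.2 and 71.6 FPKM at 5 min, and the difference was -4.95 ± 0.72 (adjusted p = 8.7e-04). PMC1, a calcium pump of the vacuole that calcineurin controls in S. cerevisiae, rose in H. burtonii from 14.8 and 17.96 to 131 and 122.7 FPKM. In H. pseudoburtonii PMC1 had 30.2 and 28.1 FPKM at 0 min and 40.8 and 30.9 FPKM at 5 min, a change of 0.28 ± 0.30 that was not called, and the difference was -2.61 ± 0.38 (adjusted p = 9.9e-04). RCN1, the calcipressin that binds calcineurin and is a common readout of its activity, rose in H. burtonii from 98.8 and 137 to 788 and 814 FPKM. In H. pseudoburtonii RCN1 had 50.2 and 59.2 FPKM at 0 min and 39.6 and 35.1 FPKM at 5 min, and the difference was -3.31 ± 0.34 (adjusted p = 1.1e-04). The kinase cmk1, a calmodulin-dependent enzyme, rose in H. burtonii and fell in H. pseudoburtonii, from 54.8 and 67.6 to 8.92 and 8.56 FPKM, with a difference of -3.60 ± 0.25 (adjusted p = 3.4e-06). PMC1, RCN1 and cmk1 were the 3 calls among 11 tested pairs of calcineurin and calcium, all lower, against 7.68% of all tested pairs. CNB1, the regulatory subunit of calcineurin, fell in H. burtonii (-0.73 ± 0.16) and its difference of 1.17 ± 0.42 (adjusted p = 0.079) was not called.

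NHA1, the antiporter that exchanges sodium for protons, was called higher in H. pseudoburtonii. It had 22.6 and 19.3 FPKM at 0 min and 15.0 and 13.7 FPKM at 5 min in H. burtonii and 12.8 and 13.6 FPKM at 0 min and 31.8 and 22.4 FPKM at 5 min in H. pseudoburtonii, with a difference of 1.48 ± 0.36 (adjusted p = 0.017). That call was lost without replicate 2 at 5 min of H. burtonii or replicate 1 at 0 min of H. pseudoburtonii (adjusted p 0.063 to 0.072). PMA1, the plasma membrane proton pump, stood between 318 and 488 FPKM in H. burtonii and between 1456 and 1788 FPKM in H. pseudoburtonii, and its difference of -0.29 ± 0.25 (adjusted p = 0.45) was not called. HAK1 and NHA1 were the called members among 11 tested ion transport pairs, 1 lower and 1 higher, shares near the 7.68% and 7.86% of all tested pairs. Catalase CTT1 (-0.55) and the heat-shock protein HSP30 (1.09) were not called either, and HSP30 lay near 0 in H. pseudoburtonii, at 1.22 and 0 FPKM at 0 min and 0 and 6.29 FPKM at 5 min.

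Sterol genes were called in both directions. Of 22 tested pairs of the ergosterol list, 4 were called higher and 5 lower in H. pseudoburtonii, against 7.86% and 7.68% of all tested pairs, with a median difference of -0.02. ERG25, the methylsterol monooxygenase (pair TBIG004685 in H. burtonii), had 1238 and 1452 FPKM at 0 min and 1862 and 1893 FPKM at 5 min in H. burtonii. It fell in H. pseudoburtonii from 606 and 613 to 17.1 and 18.8 FPKM, and its difference was -5.50 ± 0.69 (adjusted p = 4.2e-04). A second pair named ERG25 (TBIG004717 in H. burtonii) had 395 and 409 FPKM at 0 min and 457 and 387 FPKM at 5 min in H. pseudoburtonii, and its difference of -0.04 ± 0.33 (adjusted p = 0.95) was not called. The desaturase ERG3 was called lower, fell in H. pseudoburtonii and went there from 267 and 276 to 123.2 and 85.8 FPKM. The phosphomevalonate kinase ERG8 (-1.14) and the sterol reductase ERG4 (-1.11) were also called lower, and sre1 was the fifth lower call of the list. The methyltransferase ERG6 rose in H. pseudoburtonii from 241 and 241 to 455 and 434 FPKM and had 244 and 212 FPKM at 0 min and 168 and 150.1 FPKM at 5 min in H. burtonii, a difference of 1.400 ± 0.24 (adjusted p = 0.0027). The lanosterol synthase ERG7 (1.19) rose in H. pseudoburtonii as well, while the mevalonate kinase ERG12 (1.44) and the sterol transport protein NCR1 (1.46) fell in H. burtonii. The calls of ERG4, ERG7, ERG8 and ERG12 were lost without replicate 2 at 5 min of H. burtonii, and those of ERG4, ERG8 and ERG12 also without 5 other libraries of 0 and 5 min (adjusted p 0.053 to 0.10).

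Of 34 tested pairs of fatty acids, sphingolipids and phospholipids, 5 were called higher, 3 lower and 26 in neither direction, against 7.86% higher and 7.68% lower of all tested pairs. The lower calls were the sphingolipid hydroxylases SCS7 and SUR2 (-2.77 and -3.17) and the fatty acid desaturase OLE1 (-0.78, pair TBIG003747 in H. burtonii). SCS7 had 228 and 198 FPKM at 0 min and 221 and 207 FPKM at 5 min in H. burtonii and fell in H. pseudoburtonii from 923 and 950.4 to 155 and 122 FPKM. SUR2 went from 11.5 and 19.2 to 0 and 3.6 FPKM in H. pseudoburtonii, where replicate 1 at 5 min is listed at 0. The fatty acid synthesis enzymes ACC1 (1.67) and FAS2 (1.41) were called higher, together with FAT1 (1.69), which takes up and activates long-chain fatty acids, and PAH1 (0.91), the phosphatidate phosphatase. INO1, which makes inositol phosphate for phospholipids, fell in H. burtonii from 76.6 and 53.9 to 12.52 and 11.4 FPKM and had 1.59 and 2.3 FPKM at 0 min and 3.21 and 5.43 FPKM at 5 min in H. pseudoburtonii, a difference of 3.16 ± 0.50 (adjusted p = 0.0016). The SUR2 call was lost without replicate 2 at 0 min of H. pseudoburtonii (adjusted p = 0.055), that of OLE1 on leaving out any 1 of 11 libraries (adjusted p 0.063 to 0.13) and that of PAH1 any 1 of 9 (adjusted p 0.060 to 0.14). With quantile scaling the OLE1 difference was -0.084 (adjusted p = 0.86).

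Amino acid biosynthesis held more of the pairs called higher in H. pseudoburtonii than any other list. Among genes of ammonium assimilation, GLT1 and GLN1 belong to that list and GDHA does not. GDHA, the NADP-dependent glutamate dehydrogenase that fixes ammonium, fell in H. burtonii from 491 and 514 to 48.3 and 69.5 FPKM. The H. pseudoburtonii libraries held 119.6 and 152 FPKM at 0 min and 177 and 248 FPKM at 5 min, a change of 0.63 ± 0.23 that was not called, and the difference was 3.72 ± 0.33 (adjusted p = 2.1e-05). Glutamate synthase GLT1 fell in H. burtonii from 527 and 659 to 256 and 228 FPKM and differed by 2.40 ± 0.39 (adjusted p = 0.0019). Glutamine synthetase GLN1 fell there too and differed by 1.18, lost without replicate 2 at 5 min of H. burtonii or replicate 1 at 0 min of H. pseudoburtonii (adjusted p 0.055 to 0.057). Together these enzymes carry ammonium into glutamate and glutamine.

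Several amino acid permeases rose in H. pseudoburtonii. The proline permease put4 had 166 and 247 FPKM at 0 min and 62.1 and 88.0 FPKM at 5 min in H. burtonii, a fall. In H. pseudoburtonii it rose from 3.61 and 5.57 to 32.9 and 30.6 FPKM and stayed below every library of H. burtonii, with a difference of 4.02 ± 0.62 (adjusted p = 0.0013). The permease CAN1, which carries lysine and arginine, rose in H. pseudoburtonii from 12.1 and 18.3 to 56.0 and 47.1 FPKM and had 59.1 and 73.6 FPKM at 0 min and 42.0 and 53.3 FPKM at 5 min in H. burtonii, a difference of 2.19 ± 0.39 (adjusted p = 0.0034). The transporter mtr, outside the uptake list, which takes up neutral amino acids in Neurospora crassa, had 0 and 2.58 FPKM at 0 min and 12.6 and 9.0 FPKM at 5 min in H. pseudoburtonii and fell in H. burtonii from 44.8 and 38.9 to 20.2 and 22.7 FPKM, a difference of 3.56 ± 0.62 (adjusted p = 0.0028). Of 12 tested pairs of amino acid and peptide uptake, the H. pseudoburtonii fit alone had 3 rising and 2 falling, against 4.32% and 4.18% of all tested pairs. In the difference, 3 were called higher and 1 lower, against 7.86% and 7.68% of all tested pairs. The median difference was 0.87, with 8 above 0 and 4 below. The third higher call was the methionine permease MUP3 (2.099), lost on leaving out any 1 of 8 libraries (adjusted p 0.054 to 0.13), and the lower call was the polyamine transporter TPO3 (-2.08), which fell in H. pseudoburtonii.

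In amino acid biosynthesis 20 of 74 tested pairs were called higher and 3 lower, against 7.86% and 7.68% of all tested pairs, with a median difference of 0.49. By the fits of each species, 18 fell and 5 rose in H. burtonii, against 10.9% and 10.7% of all tested pairs. In H. pseudoburtonii 7 rose and none fell, against 4.32% and 4.18%. HIS3, of histidine synthesis, fell in H. burtonii from 96.9 and 77.6 to 40.9 and 43.2 FPKM and rose in H. pseudoburtonii from 155 and 166 to 315 and 261 FPKM, a difference of 1.86 ± 0.30 (adjusted p = 0.0018). MET13, which makes methyl groups for methionine, fell in H. burtonii from 18.1 and 20.1 to 8.54 and 9.83 FPKM and rose in H. pseudoburtonii from 13.8 and 20.8 to 49.0 and 65.3 FPKM, a difference of 2.66 ± 0.35 (adjusted p = 5.3e-04). PRO1, the kinase that starts proline synthesis, fell in H. burtonii from 86.6 and 76.4 to 22.5 and 26.2 FPKM and differed by 2.23 ± 0.32 (adjusted p = 8.7e-04). The 3 lower calls were CPA1 (-3.28) and ORT1 (-2.25), both of arginine synthesis and both raised in H. burtonii, and TYR1 (-1.23), of tyrosine synthesis. The ORT1 call was lost with a pseudocount of 10 (adjusted p = 0.12), and that of TYR1 without any of 8 single libraries (adjusted p 0.052 to 0.12).

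Among genes that release nitrogen, the allantoicase DAL2 fell in H. burtonii from 174 and 161 to 23.7 and 19.7 FPKM. In H. pseudoburtonii DAL2 had 19.8 and 16.1 FPKM at 0 min and 30.8 and 17.7 FPKM at 5 min, levels that overlapped, and the difference was 3.27 ± 0.40 (adjusted p = 3.7e-04). The urea amidolyase DUR1,2 fell in H. burtonii too and differed by 1.78. GAD1, the glutamate decarboxylase that makes GABA, ran against them. It rose in H. burtonii from 22.9 and 32.6 to 92.7 and 99.8 FPKM and had 19.7 and 31.0 FPKM at 0 min and 8.36 and 11.3 FPKM at 5 min in H. pseudoburtonii, a difference of -3.04 ± 0.40 (adjusted p = 4.6e-04). Of 8 tested pairs of GABA, proline, arginine and glutamate breakdown, 3 were called higher, 1 lower and 4 in neither direction. Of all tested pairs, 7.86% were called higher and 7.68% lower. The higher calls were DUR1,2, GLT1 and GLN1, and the lower call was GAD1. DAL2 lies outside this list.

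Most genes listed for gluconeogenesis, the glyoxylate cycle and acetate fell in H. burtonii. Of 13 tested pairs of gluconeogenesis, glyoxylate and acetate, 9 fell in H. burtonii and 3 in H. pseudoburtonii by the fits of each species, against 10.9% and 4.18% of all tested pairs. In the difference, 3 pairs were called higher and 2 lower, against 7.86% and 7.68% of all tested pairs. MLS1, a malate synthase of the glyoxylate cycle, fell in H. burtonii from 283 and 397 to 25.9 and 53.4 FPKM. Levels in H. pseudoburtonii were 51.9 and 56.2 FPKM at 0 min and 44.5 and 40.01 FPKM at 5 min, and the difference was 2.79 ± 0.41 (adjusted p = 9.9e-04). A second malate synthase pair, PMS2, fell in H. burtonii from 231 and 254 to 37.7 and 61.0 FPKM, had 5.72 and 3.68 FPKM at 0 min and 5.17 and 11.9 FPKM at 5 min in H. pseudoburtonii and differed by 2.98 ± 0.51 (adjusted p = 0.0024). ICL1, the isocitrate lyase of the same cycle, fell in H. burtonii from 1428 and 1224 to 139.8 and 198 FPKM. In H. pseudoburtonii ICL1 was listed at 0 in 3 libraries and at 9.68 FPKM in replicate 2 at 5 min, so the highest difference of all pairs, 4.69 ± 1.05 (adjusted p = 0.011), rests in part on 1 library. The ICL1 call was lost with a pseudocount of 0.1 (adjusted p = 0.052).

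The acetyl-CoA synthetase ACS1 fell in H. burtonii from 1106 and 1143 to 247 and 365 FPKM, had 7.8 and 6.96 FPKM at 0 min and 11.2 and 5.55 FPKM at 5 min in H. pseudoburtonii and differed by 2.00 ± 0.39 (adjusted p = 0.0056). On the lower side, the malic enzyme MAE1, which turns malate into pyruvate in mitochondria, rose in H. burtonii from 929 and 890.3 to 1468 and 1431.3 FPKM. It fell in H. pseudoburtonii from 489.6 and 501 to 53.8 and 61.5 FPKM, a difference of -3.76 ± 0.26 (adjusted p = 3.4e-06). FBP1, the fructose bisphosphatase of gluconeogenesis, fell in H. pseudoburtonii, a difference of -1.87. The galactose enzyme gal10 fell in H. burtonii from 1577 and 1797 to 213 and 163 FPKM and was near 0 in H. pseudoburtonii, at 0.489 and 0.467 FPKM at 0 min and 0 and 1.25 FPKM at 5 min. Its difference of 3.19 was lost with a pseudocount of 0.1 (adjusted p = 0.17). Of 22 tested pairs of peroxisomes and beta-oxidation, 4 were called higher and none lower, against 7.86% and 7.68% of all tested pairs. Besides FAT1 they were the import proteins PEX5 (1.36) and PEX6 (0.97) and the peroxisomal protein PEX28 (1.14), whose calls were lost without replicate 1 or 2 at 5 min of H. burtonii or replicate 2 at 0 min of H. pseudoburtonii (adjusted p 0.052 to 0.18 over all libraries that ended them).

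Of 15 tested pairs of phosphate uptake, 4 fell and none rose in H. burtonii by its own fit, against 10.9% and 10.7% of all tested pairs, and 3 were called in the difference. PHO84, the high-affinity phosphate transporter, lay on chromosome 3, positions 669966 to 671630, in H. burtonii and on chromosome 1, positions 2178155 to 2179825, in H. pseudoburtonii. It fell in H. burtonii from 464 and 490.2 to 15.9 and 13.3 FPKM. The H. pseudoburtonii libraries held 237 and 243 FPKM at 0 min and 84.7 and 109.6 FPKM at 5 min, a change of -1.31 ± 0.33 (adjusted p = 0.052), and the difference was 3.64 ± 0.49 (adjusted p = 5.6e-04). GIT1, a transporter that takes up glycerophosphoinositol in S. cerevisiae, fell in H. burtonii from 253 and 200.4 to 9.85 and 8.6 FPKM and was low in H. pseudoburtonii, at 6.21 and 4.26 FPKM at 0 min and 0 and 2.1 FPKM at 5 min. The vacuolar transporter chaperone VTC4, which makes polyphosphate, fell in H. burtonii and differed by 1.86. These were the 3 calls, all higher in H. pseudoburtonii, against 7.86% of all tested pairs. The other 12 pairs were not called, 14 of the 15 had a difference above 0, and the median was 0.74. The difference of GIT1, 2.66, and that of VTC4 were no longer called without either 5 min library of H. burtonii (adjusted p 0.055 to 0.082 over all libraries that ended them). The GIT1 difference fell to 1.12 with a pseudocount of 0.1 (adjusted p = 0.63) and lost its call with quantile scaling too (adjusted p = 0.061).

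Of 60 tested pairs of cell cycle, replication and histones, 6 were called higher and 2 lower, so the share called higher was near the 7.86% of all tested pairs, with a median difference of 0.62. By the fits of each species, 13 rose and 3 fell in H. pseudoburtonii, against 4.32% and 4.18% of all tested pairs. In H. burtonii 7 rose and 2 fell, against 10.7% and 10.9%. PCL1, a cyclin of the Pho85 kinase that acts in G1, rose in H. pseudoburtonii from 14.6 and 26.8 to 79.5 and 99.2 FPKM and had 4.17 and 11.5 FPKM at 0 min and 2.04 and 3.53 FPKM at 5 min in H. burtonii, a difference of 3.22 ± 0.63 (adjusted p = 0.0056). MCM1, a factor with many cell cycle targets in S. cerevisiae, rose in H. pseudoburtonii from 10.7 and 10.2 to 30.5 and 31.8 FPKM and differed by 1.60 ± 0.27 (adjusted p = 0.0024). The polymerase subunit POL1 differed by 2.07.

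Some other pairs of the 15 highest differences, outside that list, have roles in chromosomes and transcription. The cohesin subunit rad21 rose in H. pseudoburtonii from 6.84 and 9.07 to 60.02 and 52.1 FPKM, with 3.98 and 5.08 FPKM at 0 min and 2.16 and 2.02 FPKM at 5 min in H. burtonii and a difference of 3.51 ± 0.47 (adjusted p = 5.3e-04). YOX1, a homeobox repressor of early cell cycle genes in S. cerevisiae, rose in H. pseudoburtonii from 12.8 and 6.05 to 112 and 54.2 FPKM, with 17.2 and 19.8 FPKM at 0 min and 11.8 and 9.7 FPKM at 5 min in H. burtonii and a difference of 3.73 ± 0.53 (adjusted p = 7.8e-04). The kinetochore protein DAD2, in contrast, fell in H. burtonii from 35.2 and 37.2 to 5.5 and 4.58 FPKM, with a difference of 2.98 ± 0.46 (adjusted p = 0.0014), and had 55.2 and 67.9 FPKM at 0 min and 64.1 and 96.0 FPKM at 5 min in H. pseudoburtonii. SGF11, a subunit of the SAGA complex, rose in H. pseudoburtonii from 17.7 and 11.3 to 104 and 78.3 FPKM and differed by 3.43, a call lost without replicate 2 at 5 min of H. burtonii or replicate 2 at 0 min of H. pseudoburtonii (adjusted p 0.053 to 0.063). J1431, another of the 15 highest differences, is a protein of the MEMO1 family and is not counted with those roles. It rose in H. pseudoburtonii from 4.52 and 6.54 to 28.8 and 57.5 FPKM and fell in H. burtonii, a difference of 3.62 ± 0.43 (adjusted p = 2.9e-04). The lower calls of the cell cycle list were the cyclins HGC1, in C. albicans a cyclin of hyphal growth, and PCL7. HGC1 had 0.628 and 2.12 FPKM at 0 min and 10.9 and 6.13 FPKM at 5 min in H. burtonii and 75.1 and 57.9 FPKM at 0 min and 23.6 and 16.0 FPKM at 5 min in H. pseudoburtonii, a difference of -3.74 ± 0.65 (adjusted p = 0.0029), and PCL7 differed by -1.97.

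Of 155 tested pairs of ribosome biogenesis, 55 rose and none fell in H. burtonii, and 21 rose and 1 fell in H. pseudoburtonii, by the fits of each species. Of all tested pairs, 10.7% rose in H. burtonii and 4.32% in H. pseudoburtonii. The median change was 0.92 in H. burtonii and 0.59 in H. pseudoburtonii, and 16 pairs were called lower and 1 higher, against 7.68% and 7.86% of all tested pairs. NOP58, a core protein of the box C/D particles that guide methylation of ribosomal RNA, rose in H. burtonii from 47.6 and 36.5 to 161 and 123.4 FPKM and in H. pseudoburtonii from 185 and 185 to 388 and 343 FPKM. CBF5, the pseudouridine synthase of the box H/ACA particles, rose from 82.7 and 71.3 to 179.9 and 169 FPKM and from 284 and 272 to 521 and 476 FPKM. Neither difference was called (-0.76 and -0.33). The lower calls included GRC3 (-2.65), a kinase of pre-ribosomal RNA processing, and UTP13 (-2.42), of the small subunit processome. LAS1, the nuclease that works with Grc3, was the higher call (1.45), lost on leaving out any 1 of 5 libraries (adjusted p 0.070 to 0.13).

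Among 33 translation factors 1 was called higher and 1 lower (median difference -0.02), and among 28 aminoacyl-tRNA synthetases 1 higher and 2 lower (0.02). Of all tested pairs, 7.86% were called higher and 7.68% lower. No difference was called by limma among 56 tested cytosolic ribosomal proteins, against 15.5% of all tested pairs. Of the 56, 13 had an unadjusted p under 0.05, and the median difference was -0.40. By the fits of each species, 12 of them rose in H. burtonii and none changed in H. pseudoburtonii. Over all tested pairs, 10.7% rose in H. burtonii, and 4.32% rose and 4.18% fell in H. pseudoburtonii. Of 65 mitochondrial ribosomal proteins 8 were called lower and 1, MRP10 (1.68), higher, against 7.68% and 7.86% of all tested pairs, with a median of -0.40. Among 31 pairs of RNA polymerases I and III, the initiation factor RRN3 (-1.68) and the subunit RPC31 (-1.96) were called lower and the assembly factor TFC4 (1.11) higher. Both shares were below the 7.68% and 7.86% of all tested pairs. The calls of MRP10, RRN3, RPC31 and TFC4 were each lost without either 5 min library of H. burtonii or either 0 min library of H. pseudoburtonii (adjusted p 0.050 to 0.14 over all libraries that ended them). In the proteasome, which degrades proteins, 11 of 32 tested pairs fell in H. burtonii and none changed in H. pseudoburtonii by the fits of each species, 3 were called higher and none lower, and the median difference was 0.28. Of all tested pairs, 10.9% fell in H. burtonii and 7.86% were called higher, so the share of the proteasome called higher was near that of all pairs.

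**Figure D3:**
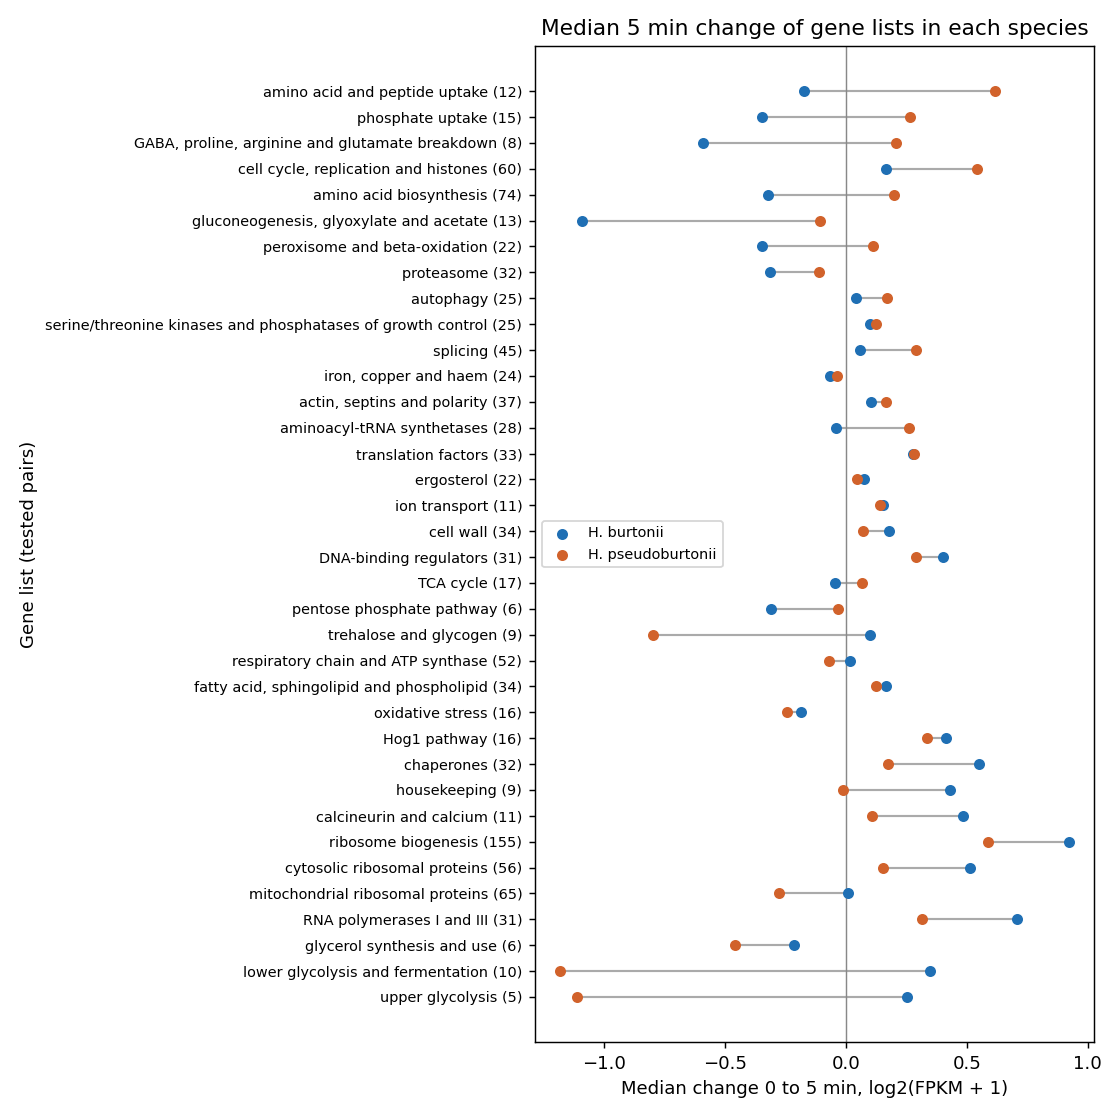
Median change in log2(FPKM + 1) from 0 to 5 min of each gene list with at least 5 tested pairs, H. burtonii in blue and H. pseudoburtonii in orange, ordered by the median difference, with the number of tested pairs in brackets. Glycolysis lies at the bottom with medians on opposite sides of 0, and ribosome biogenesis lies above 0 in both species, with the highest median of all lists in H. burtonii.

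The 4 pairs that changed in the same direction in both species and were still called in the difference were named after their values were seen. CTH1, an mRNA decay factor, fell in H. burtonii from 2099 and 1813 to 1213 and 1066 FPKM and in H. pseudoburtonii from 1223 and 1279 to 291 and 247 FPKM. Fumarate reductase (FRDS_YEAST) fell in H. burtonii from 576 and 509 to 403 and 342 FPKM and in H. pseudoburtonii from 282 and 337 to 41.8 and 33.5 FPKM. Both fell further in H. pseudoburtonii, with differences of -1.44 and -2.46. PIN2 rose from 21.9 and 30.8 to 162 and 161 FPKM in H. burtonii and from 47.0 and 56.7 to 159.9 and 109 FPKM in H. pseudoburtonii. TSR1, of small subunit maturation, rose from 6.84 and 4.73 to 44.5 and 40.7 FPKM and from 81.5 and 85.6 to 172 and 130.5 FPKM. These rose further in H. burtonii, with differences of -1.25 and -1.87, and both calls were lost without either 5 min library of H. burtonii (adjusted p 0.053 to 0.084 over all libraries that ended them).

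Of 34 tested cell wall pairs, 5 were called, a share near the 15.5% of all tested pairs. GFA1, the first enzyme of chitin precursor synthesis, rose in H. burtonii from 202 and 334 to 566 and 539 FPKM and fell in H. pseudoburtonii from 519.7 and 464 to 234 and 249.7 FPKM, a difference of -2.104 ± 0.33 (adjusted p = 0.0014). The chitinase CHT2 did the reverse. It fell in H. burtonii from 375 and 312 to 161 and 163 FPKM and rose in H. pseudoburtonii from 698 and 632 to 1443 and 974 FPKM, a difference of 1.90 ± 0.29 (adjusted p = 0.0011). The wall mannoprotein PIR3 (-3.07), the yapsin protease YPS7 (-1.96) and the glycosidase CRH1 (-1.16) were called lower. The CRH1 call was lost without replicate 1 at 5 min of H. burtonii or replicate 1 at 0 min of H. pseudoburtonii (adjusted p 0.056 to 0.067).

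Of 24 tested pairs of iron, copper and haem, 3 were called higher and 3 lower, against 7.86% and 7.68% of all tested pairs. The copper transporter CTR2, which in S. cerevisiae sits on the vacuole, fell in H. pseudoburtonii from 521 and 491 to 106 and 77.2 FPKM and had 443 and 837 FPKM at 0 min and 586 and 792 FPKM at 5 min in H. burtonii, a difference of -2.63 ± 0.59 (adjusted p = 0.012). CTR1, the copper importer of the plasma membrane, fell in H. burtonii from 1139.5 and 1691 to 414 and 658 FPKM and had 276 and 333 FPKM at 0 min and 296 and 352 FPKM at 5 min in H. pseudoburtonii, a difference of 1.498 ± 0.39 (adjusted p = 0.022). The metal reductase FRE7 (1.68) and HEM12 (1.10), of haem synthesis, were called higher, and the manganese transporter SMF1 (-2.06) and HEM13 (-1.31), an oxygen-dependent enzyme of haem synthesis, lower. HEM13 fell in H. pseudoburtonii from 202 and 218 to 60.9 and 49.7 FPKM. All but HEM13 lost the call without 1 or more libraries of H. burtonii at 5 min, replicate 2 for CTR2 (adjusted p = 0.057) and replicate 1 for CTR1, FRE7, HEM12 and SMF1 (adjusted p 0.050 to 0.13 over all libraries that ended them).

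The differences of 14 named pairs were followed to 15 and 30 min against the same 0 min libraries, so the 3 times are not independent, and the median over all tested pairs shifted to -0.33 and -0.28. The differences of sre1 and ERG25 were -3.11 and -3.37 at 15 min and -0.19 and 0.08 at 30 min, where neither was called (adjusted p = 0.65 and 0.94). By then sre1 had 45.1 and 47.0 FPKM in H. burtonii and 34.01 and 46.6 FPKM in H. pseudoburtonii, below every 0 min library in both species. The difference of TYE7 was -4.46 and -2.31, that of STO1 -4.62 and -1.52, and that of PDC11 -2.22 and -0.74, of which the last was not called (adjusted p = 0.094). PMC1 remained called at 15 min (-2.55) and was at 0.38 at 30 min (adjusted p = 0.47), when it had 57.3 and 49.7 FPKM in H. burtonii and 116 and 127 FPKM in H. pseudoburtonii, above every 0 min library in both species. RCN1 was at -0.94 and 0.66, and neither was called (adjusted p = 0.071 and 0.16). HAK1 remained called at both times, at -3.80 and -3.10.

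YHB1 and HSP104 changed sign. YHB1 went from -2.39 at 15 min to 3.91 at 30 min (adjusted p = 3.1e-06), when it had 23.4 and 19.8 FPKM in H. burtonii and 84.2 and 96.7 FPKM in H. pseudoburtonii. HSP104 went from -1.38, not called (adjusted p = 0.093), to 2.69 (adjusted p = 0.0026), with 65.5 and 57.6 FPKM in H. burtonii and 768 and 565 FPKM in H. pseudoburtonii at 30 min. On the higher side, the differences of GDHA, put4 and MLS1 were 5.83, 8.37 and 6.61 at 30 min, each above its value at 5 min. MLS1, for example, then had 7.51 and 7.93 FPKM in H. burtonii and 131 and 146 FPKM in H. pseudoburtonii, and put4 had 8.66 and 4.33 and 66.2 and 60.5 FPKM. PHO84 was at 1.15, not called (adjusted p = 0.12), and at 2.31.

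**Figure D4:**
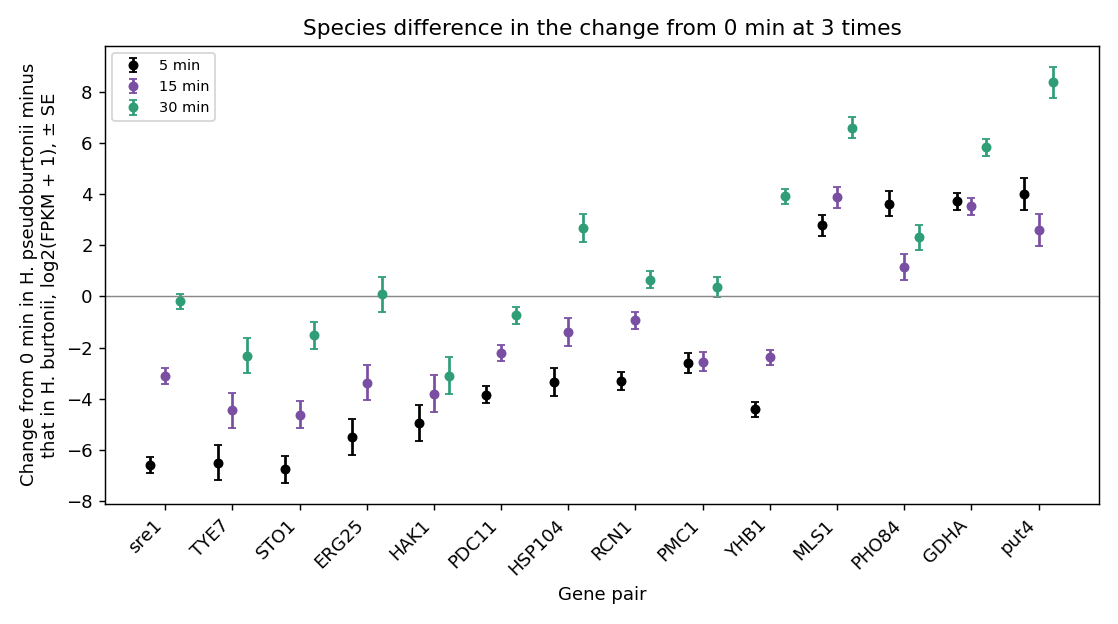
Difference between the species in the change from 0 min (H. pseudoburtonii minus H. burtonii, log2(FPKM + 1), with standard errors from limma) at 5, 15 and 30 min for 14 gene pairs. The negative differences of sre1, ERG25 and PMC1 lie near 0 at 30 min, those of YHB1 and HSP104 are positive by then, and those of MLS1, GDHA and put4 are higher than at 5 min.

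Levels of the species were compared last. The correlation of log2 levels over the 3399 pairs between libraries of the species was 0.634 to 0.664 at 0 min, 0.664 to 0.676 at 5 min, 0.737 to 0.745 between H. burtonii at 5 min and H. pseudoburtonii at 0 min, and 0.56 to 0.595 between H. burtonii at 0 min and H. pseudoburtonii at 5 min. Libraries of H. burtonii taken after salt thus correlated more highly in level with unsalted H. pseudoburtonii than the unsalted libraries of H. burtonii did. Of the 528 called pairs, 281 (53.2%) had a smaller gap in level between the species at 5 min than at 0 min, against 54.3% of all tested pairs.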

How the data were processed

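RNA-seq of whole yeast cultures gave 16 libraries, 2 for each of 2 species and 4 times. Per the submitters' processing notes the tools, in no stated order, were Cufflinks 2.2.1, TopHat2 2.1.1, FastQC 0.11.8 and CASAVA 1.8.2, with genome builds and annotations not given in the sources used here. The authors deposited 1 table per species with an FPKM value per gene and library, and no counts, so depth is unknown in reads and was estimated only relative to the deepest library of a species, from the 20 lowest products of FPKM and gene span.

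FPKM were taken as deposited, with no further scaling, and log2(FPKM + 1) was fitted with limma 3.58.1 in R 4.3.3, with a trend in the prior variance. All 16 libraries entered the fit with 8 group means, so that the times shared 1 estimate of the spread per gene pair, and pairs needed at least 1 FPKM in at least 2 libraries of each species (16 pairs were not tested). The contrast subtracted the 5 min change of H. burtonii from that of H. pseudoburtonii. Each species was also fitted alone over all its genes. P-values were Benjamini-Hochberg adjusted over all features tested, two-sided, with a threshold of 0.05. The code was tested on simulated data. Gene names and descriptions are those of the deposited tables, taken from matches in other species, so roles are those of the matched genes. Pairs rest on equal labels, and orthology was not tested.

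The text names pairs from a rule: the 15 highest and the 15 lowest called differences whose highest group mean reached 10 FPKM, with no overlap between the species' changes, the 3 pairs with the smallest adjusted p of each gene list, and a fixed set of stress genes. Of 134 named pairs, 41 lie outside it and were picked once their values had been seen, mostly to complete the called members of a list. PDC1, ADH2, ADH3 and ADH6, given with their differences alone, are not counted among the 134 and were not followed over the alternatives. Some pairs are not reported here. The members and lists were chosen with earlier results of these data known. Alternatives were other scalings, pseudocounts, filters, variance settings and pairings, and each library left out. Where that left a group with 1 library, it was assumed to vary like the others. Figures were drawn with matplotlib 3.10.9.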

Additional observations from a re-analysis of the deposited data

Results flagged for a closer look

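The difference between the species was tested in the same contrast, and 528 pairs passed. Among named pairs, 19 also changed in both species by the fits of each species alone, in opposite directions. Those that rose in H. burtonii and fell in H. pseudoburtonii were STO1 (difference -6.77), TYE7 (-6.50), FCR1 (-6.09), SLY41 (-4.54), PDE2 (-4.35), KHT2 (-3.77), MAE1 (-3.76), HGC1 (-3.74), cmk1 (-3.60), PYK1 (-2.19), GFA1 (-2.10) and PCL7 (-1.97). Those that fell in H. burtonii and rose in H. pseudoburtonii were put4 (4.02), J1431 (3.62), mtr (3.56), MET13 (2.66), CHT2 (1.90), HIS3 (1.86) and FAS2 (1.41). Groups of 2 libraries allow no test for a sample far from the others.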

How the results depend on the processing

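With 2 libraries per group the counts were sensitive to single libraries. Over the settings that left out 1 library, pairs called ranged from 247 to 677, those higher in H. pseudoburtonii from 100 to 321, those lower from 147 to 407, genes changed in H. burtonii from 178 to 1649 and in H. pseudoburtonii from 94 to 665. The highest count of pairs and of lower pairs came without replicate 2 at 0 min of H. burtonii. Fitting only the libraries at 0 and 5 min gave 855 changed genes in H. burtonii and 227 in H. pseudoburtonii, and asking for a change of at least 1 gave 865 in H. burtonii. The pair count stayed between 408 and 558 under every setting that kept all 16 libraries, besides 471 with the 0 and 5 min libraries alone. Settings with a stricter filter or pairing tested fewer pairs, so these counts are not shares of the same total. The lowest, 408, came from pairs with gene spans within 10%. Of the 123 called named pairs, 75 kept the call under every alternative in which they were tested. Of the 11 named pairs not called, 4 were called under at least 1 alternative. These were ACT1 with quantile scaling, GPH1 with a pseudocount of 10 among others, and HSP12 and CNB1 on leaving out a 5 min library of H. pseudoburtonii. Calls ended under median-ratio scaling for CCT3, GLC3, ERG12, PEX28, OLE1, PAH1 and HEM12, and under quantile scaling for GPM1, TMA10, 1 GPD pair, SSA1, AHA1, PGK1, TPI1, CCT3, GLC3, ERG12, GIT1, RRN3, RPC31, PEX5, PEX28, OLE1, PAH1 and HEM12. Fitting only the 0 and 5 min libraries ended the calls of TMA10, SMF1, PTP3, 1 GPD pair, TYR1, PGK1, GLC3, ERG12, MUP3, PIN2, SUR2, LAS1, TFC4, RPC31, PEX5, PEX6, PEX28, OLE1 and PAH1. A pseudocount of 0.1 ended those of RGI1, GIT1, gal10, ICL1, SUR2 and RPC31, and a pseudocount of 10 those of ORT1, TSR1, PTP3, MUP3, TFC4, RRN3 and PEX28. Without the variance trend TPI1, 1 GPD pair, RPC31 and OLE1 were not called, and with weights per species RPC31 was not. Signs reversed for pairs that were not called: PMA1 (0.0035 with quantile scaling), CTT1 (0.02 with a pseudocount of 10), HSP30 (-0.35 to 2.52 over single libraries left out, the lowest without replicate 2 at 5 min of H. pseudoburtonii), the second ERG25 pair (0.053 with quantile scaling, -0.23 to 0.15 over single libraries left out, above 0 without replicate 2 at 0 or 5 min of H. burtonii or at 5 min of H. pseudoburtonii), the first ERG25 pair at 30 min (-0.071 to 0.22, below 0 without replicate 2 at 0 min or replicate 1 at 30 min of H. burtonii, or replicate 1 at 30 min of H. pseudoburtonii) and sre1 at 30 min (-0.41 to 0.034, above 0 without replicate 1 at 30 min of H. pseudoburtonii). The median of the sugar transporters became -3.77 when only pairs with gene spans within 10% were kept, since fewer pairs remained. The cause was not tested in the other cases.

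The labels do not say that a replicate number marks a shared culture or day, and not every correlation of same-numbered deviations was above 0.1, so the numbers were not taken as pairing. In H. burtonii the correlation was 0.26 between 0 and 5 min, 0.52 between 0 and 15 min and 0.22 between 5 and 15 min, and from -0.22 to 0.001 for the times paired with 30 min. In H. pseudoburtonii it ran from -0.10 to 0.06. With a replicate block 547 pairs were called, 261 higher and 286 lower, and TFC4, PEX6, PEX28, OLE1 and PAH1 lost the call.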
